A study of Mus musculus with 4 samples.

Results

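Transcripts of 7 genes of the egg coat and of sperm binding were followed in mouse oocytes of 2 chromatin configurations, NSN (nucleolus not surrounded by chromatin) and SN (nucleolus surrounded). The genes were taken by name, namely Zp1, Zp2, Zp3, Astl, Izumo1r, Cd9 and Cd81, and all 7 were among the 16861 genes listed in the libraries. Germinal vesicle oocytes are fully grown oocytes arrested in meiotic prophase. They came from antral follicles of 3-week-old female C57BL/6J mice, were stripped of cumulus cells and were sorted by Hoechst staining into NSN oocytes, with diffuse chromatin, and SN oocytes, with condensed chromatin in a ring around the nucleolus. Neither group carried an engineered allele, and oocytes that could not be assigned to a configuration were left out. There were 2 Smart-seq2 libraries per configuration, each from 15 pooled oocytes whose zona had been digested with pronase before lysis. The sources used here do not tie the replicates to separate animals, so p-values measure the spread between these libraries, which may be technical.

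The zona pellucida is the extracellular glycoprotein coat that the growing oocyte secretes around itself. In the mouse it is assembled from ZP1, ZP2 and ZP3, of which ZP2 and ZP3 form filaments that ZP1 crosslinks. Sperm bind to the coat through ZP2. After fertilisation ovastacin, the protease encoded by Astl, is released from cortical granules and cleaves ZP2, so that further sperm no longer bind. At the egg membrane, Izumo1r encodes JUNO, the receptor for the sperm protein IZUMO1, and the tetraspanins CD9 and CD81 are membrane organisers needed for efficient sperm fusion.

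The values are FPKM, the read pairs on a gene relative to its length and to the total of the library. The 4 libraries held 17069772 to 17998361 read pairs. Whole read pairs could be recovered from the FPKM of 99.86% of genes, among them all 7 studied here. SN and NSN were compared with limma on log2(FPKM + 0.5) over the 11672 genes whose FPKM averaged 0.5 or more across the libraries. Genes counted as called when the p adjusted after Benjamini and Hochberg was below 0.05 and the level changed 1.2-fold or more. Of the 7 genes, 6 passed the filter on low values, and Cd81 did not. FPKM are shares of a library and carry no measure of RNA per oocyte, so fewer transcripts of a gene per oocyte and more RNA of other genes cannot be told apart. The median log2 fold change of all genes tested was 0.14 as deposited and 0.0051 when each library was divided by its median ratio to the mean of the 4 libraries, here called median scaling.

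In each library Zp3, Zp2 and Zp1 were among the most abundant transcripts, and all 3 were lower in SN than in NSN oocytes. Astl and Cd9 were lower as well, whereas Izumo1r lay at nearly the same level in both configurations. Of the 6 genes tested, 5 were called lower in SN (Zp1, Zp2, Zp3, Astl and Cd9) and none higher. Over all genes tested, 7.93% were called in either direction, 1.98% lower and 5.95% higher. The smallest limma adjusted p of all genes was 0.036, a value that Zp1, Zp3 and Astl shared with other genes. Of the 11672 genes tested, 3695 had an unadjusted p under 0.05 (limma). The SN libraries lay below both NSN libraries for the same 5 genes, and for 17.8% of all genes tested. After median scaling, limma called 3 of the 6 lower (Zp1, Zp3 and Astl), against 1.53% of all genes.

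**Figure D1:**
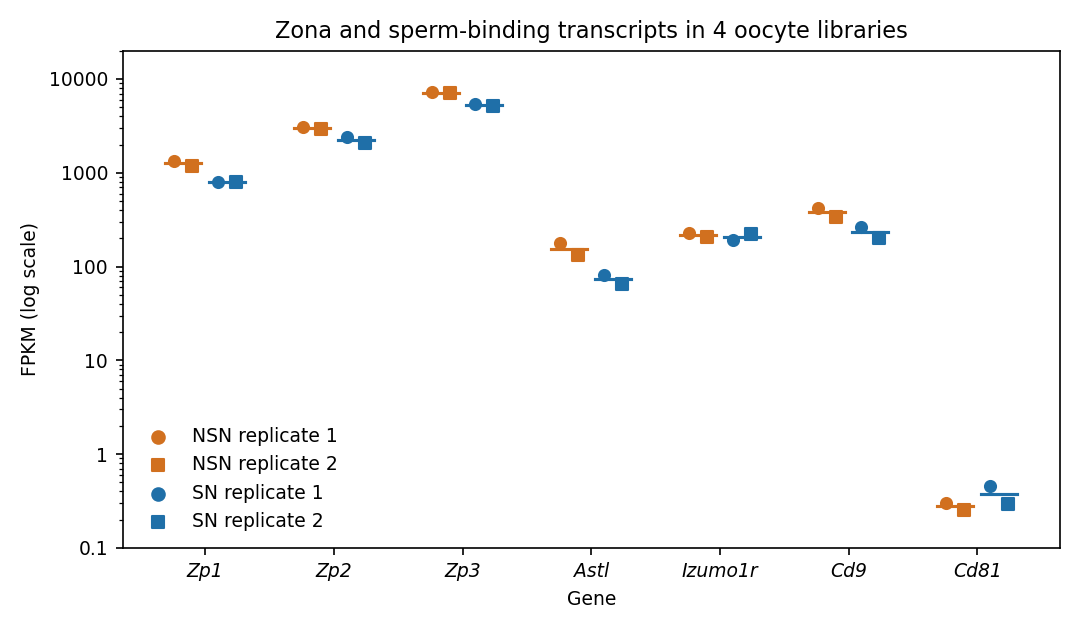
FPKM of the 7 genes (log axis) in each of the 4 libraries, with NSN in orange, SN in blue, circles for replicate 1, squares for replicate 2 and a line at the mean of each group. Zp3 is the most abundant at 5208 to 7281 FPKM, Cd81 is the lowest at 0.255 to 0.459 FPKM, and the SN symbols lie below the NSN symbols for Zp1, Zp2, Zp3, Astl and Cd9.

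Among the structural genes of the coat, Zp3 had the highest level. Zp3 (ENSMUSG00000004948.14, chr5:136008953-136017478, plus strand of GRCm39) had an FPKM of 7281 and 7063 in NSN replicates 1 and 2 and of 5425 and 5208 in SN replicates 1 and 2. It ranked 3 among all listed genes in each of the 4 libraries. The SN libraries were both lower than either NSN library, by more than the gap between replicates. The group means were 7172 ± 154 and 5316 ± 153 FPKM (SD, n = 2). The level was 1.35-fold lower in SN, a log2 fold change of -0.43 (limma, with a standard error of 0.07 and an adjusted p of 0.036).

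Zp2 encodes the zona protein to which sperm bind and which ovastacin cleaves. Zp2 (ENSMUSG00000030911.8, chr7:119725995-119744514, minus strand) had an FPKM of 3065 and 2913 in NSN oocytes against 2409 and 2089 in SN oocytes. The groups did not overlap, although the SN replicates were farther apart than the NSN replicates. Its rank among listed genes went from 18 and 20 in NSN to 26 and 32 in SN. The means were 2989 ± 107 and 2249 ± 226 FPKM (SD, n = 2), which on the log2 scale is a difference of -0.41 (limma, with a standard error of 0.09 and an adjusted p of 0.045). After median scaling the log2 fold change of Zp2 was -0.57 and its limma adjusted p was 0.054, so the call was lost while the difference grew.

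Zp1 encodes the crosslinking protein and was the least abundant of the 3 zona transcripts. Zp1 (ENSMUSG00000024734.9, chr19:10891651-10897996, minus strand) had an FPKM of 1343 and 1185 in NSN oocytes against 793 and 801 in SN oocytes. The SN replicates were nearly equal and both lay well below the NSN replicates. The means were 1264 ± 112 and 797 ± 5.57 FPKM (SD, n = 2), so Zp1 was 1.59-fold lower in SN. The log2 fold change was -0.66 (limma, with a standard error of 0.08 and an adjusted p of 0.036).

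Together Zp1, Zp2 and Zp3 took a visible share of each library. They held 1.98% of the read pairs in NSN replicate 1 (Wilson 95% interval 1.97% to 1.98%) and 1.88% in NSN replicate 2 (1.87% to 1.88%). In SN replicates 1 and 2 the share was 1.46% (1.46% to 1.47%) and 1.36% (1.35% to 1.36%). Amplification makes copies of the same molecule, so the intervals reflect counting alone, and the gap between replicates was wider than any of them.

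The proportion of the zona transcripts to one another was compared within each library, where the scaling of the library cancels. Zp2 stood at 42.1% and 41.2% of the FPKM of Zp3 in NSN oocytes against 44.4% and 40.1% in SN oocytes. The NSN values lie between the SN values (exact permutation test, two-sided p = 1). Zp1 stood at 18.4% and 16.8% of Zp3 in NSN and at 14.6% and 15.4% in SN. These groups did not overlap, with a difference of -0.23 on the log2 scale (exact permutation test, two-sided p = 0.333). Against Zp2, Zp1 stood at 43.8% and 40.7% in NSN and at 32.9% and 38.3% in SN (exact permutation test, two-sided p = 0.333). With 2 libraries against 2, 0.333 is the smallest p such a test can give. In all, 8 ratios were compared, 4 of them chosen after the values were seen, and the adjusted p of the ratios without overlap was 0.444 (exact permutation test, Benjamini-Hochberg over the 8).

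**Figure D2:**
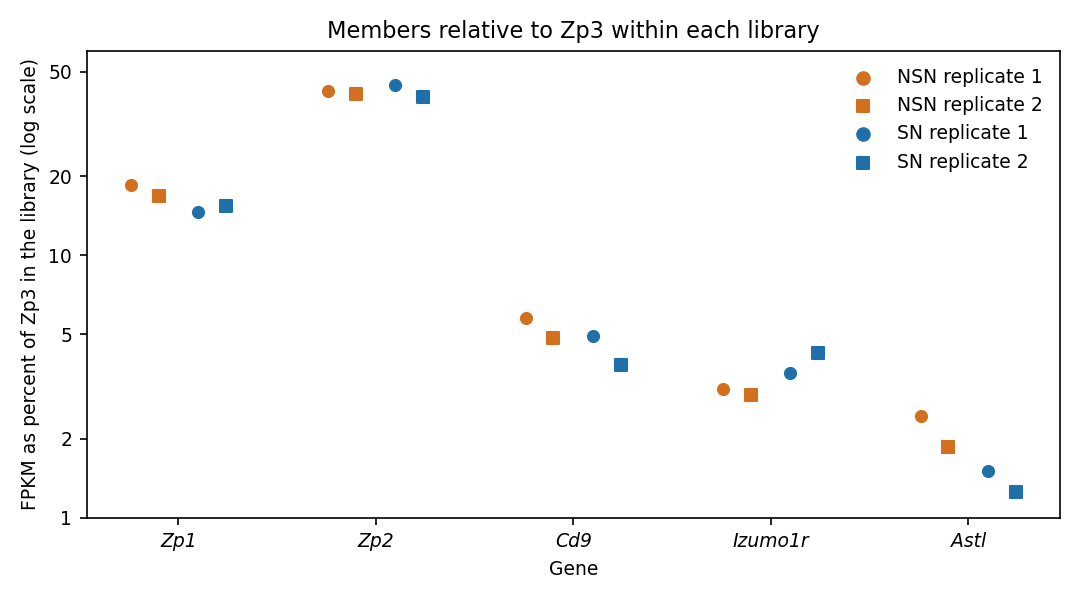
FPKM of 5 genes as a percent of the FPKM of Zp3 in the same library (log axis), with NSN in orange, SN in blue, circles for replicate 1 and squares for replicate 2. Zp2 stays between 40.1% and 44.4% in the 4 libraries, Zp1 and Astl are lower in both SN libraries, Izumo1r is higher in both SN libraries, and the Cd9 values overlap.

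The zona genes are a textbook case of shared promoter control, in which FIGLA, a basic helix-loop-helix factor of oocytes, acts with a partner at E-boxes upstream of each gene. The 250 bases before the start of the GENCODE canonical transcript of each zona gene are shown, 5′ to 3′ on the coding strand of GRCm39. Whether such control bears on their lower levels in SN was not tested. For Zp1 and Zp3 that start is the end of the gene as given above, and for Zp2 it lies 1 base inside it. Capitals mark each E-box match, written CANNTG, a motif that reads the same on both strands.
Zp1 (chr19:10897997-10898246, minus strand): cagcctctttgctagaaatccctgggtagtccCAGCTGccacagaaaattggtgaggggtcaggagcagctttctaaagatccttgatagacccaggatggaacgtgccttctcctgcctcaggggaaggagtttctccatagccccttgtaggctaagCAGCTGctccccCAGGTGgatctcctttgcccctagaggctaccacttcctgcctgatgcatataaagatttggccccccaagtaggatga
Zp2 (chr7:119744514-119744763, minus strand): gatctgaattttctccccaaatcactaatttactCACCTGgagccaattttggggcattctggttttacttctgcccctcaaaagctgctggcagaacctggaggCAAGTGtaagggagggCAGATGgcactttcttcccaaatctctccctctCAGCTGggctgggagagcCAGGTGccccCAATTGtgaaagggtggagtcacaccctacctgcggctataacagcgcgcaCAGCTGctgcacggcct
Zp3 (chr5:136008703-136008952, plus strand): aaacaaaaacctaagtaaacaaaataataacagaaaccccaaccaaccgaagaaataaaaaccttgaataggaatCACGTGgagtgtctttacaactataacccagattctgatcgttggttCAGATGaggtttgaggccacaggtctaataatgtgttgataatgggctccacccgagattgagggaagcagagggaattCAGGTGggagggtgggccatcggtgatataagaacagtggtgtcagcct
The Zp1 and Zp3 stretches held 3 matches each and the Zp2 stretch 7. The match farthest upstream was CAGCTG at position -218 in Zp1, CACCTG at -216 in Zp2 and CACGTG at -175 in Zp3, counted so that -1 is the base before the start. The stretches of Cd9 and Cd81 held 1 match each, and those of Astl and Izumo1r held 0. The canonical transcript of Cd81 starts inside the gene, downstream of the start of a longer annotated transcript, so its stretch and the match at -124 overlap the gene as annotated. A match is common, since 63.4% of 16483 stretches of the same length before listed genes held at least 1 and 29% held 2 or more. A TATA motif, searched as TATAAA on both strands, stood in Zp1 from -30 to -25 and in 0 of the other 6 stretches, against 9.67% of all. Such matches describe the letters of these windows and do not show binding.

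**Figure D3:**
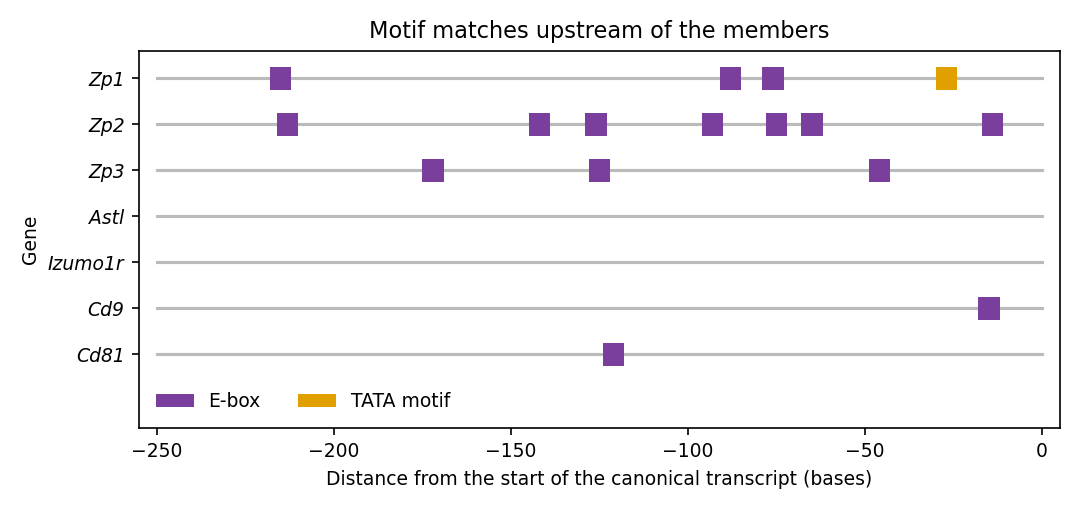
Positions of E-box matches (purple) and the TATA motif (yellow) in the 250 bases upstream of the start of the canonical transcript of each of the 7 genes, with distance from that start in bases on the horizontal axis. Zp1 and Zp3 carry 3 E-box matches each, Zp2 carries 7, and Astl and Izumo1r carry 0.

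Astl showed the largest difference of the genes studied here. Astl (ENSMUSG00000050468.13, chr2:127180559-127199571, plus strand) had an FPKM of 178 and 132 in NSN oocytes against 81.4 and 65.5 in SN oocytes. Behind these values stood 7745 and 5894 read pairs in NSN and 3474 and 2944 in SN. The groups were apart, although replicates of Astl differed more than those of the zona genes, by 1.35-fold in NSN and 1.24-fold in SN. The means were 155 ± 32.8 and 73.4 ± 11.3 FPKM (SD, n = 2), so Astl was 2.11-fold lower in SN. The log2 fold change was -1.06 (limma, with a standard error of 0.16 and an adjusted p of 0.036). Of the 11672 genes tested, 52 had a lower log2 fold change than Astl, or 0.446%.

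The transcript of the protease was also set against that of its substrate. Astl stood at 5.81% and 4.52% of the FPKM of Zp2 in NSN oocytes against 3.38% and 3.13% in SN oocytes. The SN ratios were both below the NSN ratios, a difference of -0.65 on the log2 scale (exact permutation test, two-sided p = 0.333, the smallest possible). This ratio was chosen after the values were seen. Of the exon bases of Astl in a later GENCODE release than the authors used, 6.33% lie in Gm74816. That release gives 2560 exon bases, against a length of 2499 recovered from the FPKM. Read pairs were counted without strand, so part of the Astl signal is uncertain.

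Izumo1r, the gene for JUNO, was the tested gene for which no difference was detected. Izumo1r (ENSMUSG00000031933.19, chr9:14797110-14815245, minus strand) had an FPKM of 225 and 207 in NSN oocytes against 194 and 222 in SN oocytes. The groups overlapped, with the lowest value in SN replicate 1 and the highest in NSN replicate 1. The means were 216 ± 13.1 and 208 ± 19.5 FPKM (SD, n = 2), and the difference on the log2 scale was -0.06 (limma, with a standard error of 0.09 and an adjusted p of 0.70). Its 95% interval, from -0.28 to 0.16, leaves room for a small change in either direction. After median scaling the log2 fold change was -0.21 (limma adjusted p = 0.26). Without NSN replicate 1 it was 0.0030 and without SN replicate 1 it was 0.037, so its sign is not fixed by these data.

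Izumo1r was also set against Zp3. It was 3.10% and 2.93% of the FPKM of Zp3 in NSN oocytes against 3.57% and 4.25% in SN oocytes. These values did not overlap, a difference of 0.37 on the log2 scale (exact permutation test, two-sided p = 0.333, the smallest possible). The ratio was chosen after the values were seen and restates the log2 fold changes of -0.06 for Izumo1r and -0.43 for Zp3. Only 5.66% of all genes tested had a lower log2 fold change than Zp3, so most genes rose relative to Zp3.

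The tetraspanins differed widely from each other in level. Cd9 (ENSMUSG00000030342.10, chr6:125437210-125471778, minus strand) had an FPKM of 419 and 341 in NSN oocytes against 266 and 199 in SN oocytes. The groups did not overlap, and the SN replicates differed by 1.33-fold, the widest gap between replicates among the genes tested here other than Astl in NSN. The means were 379.8 ± 55.4 and 233 ± 47.1 FPKM (SD, n = 2), which on the log2 scale is a difference of -0.71 (limma, with a standard error of 0.16 and an adjusted p of 0.046). After median scaling the log2 fold change was -0.87 and the limma adjusted p was 0.058, past the threshold for a call. Of the exon bases of Cd9 in a later GENCODE release than the authors used, 11.4% lie in Gm26728. That release gives 2126 exon bases, against a length of 1228 recovered from the FPKM, so the share in the bases counted is not known.

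Cd81 was near the limit of detection. Cd81 (ENSMUSG00000037706.19, chr7:142606314-142621672, plus strand) had an FPKM of 0.300 and 0.255 in NSN oocytes against 0.459 and 0.290 in SN oocytes. These values come from 8, 7, 12 and 8 read pairs, whose exact Poisson 95% intervals run from 2.81 to 21.0 read pairs over the 4 libraries. For this gene 3 read pairs correspond to 0.109 to 0.115 FPKM. Of its exon bases in the later GENCODE release, 8.23% lie in R74862. That release gives 3767 exon bases, against a length of 1533 recovered from the FPKM. The groups overlapped and Cd81 did not enter the test. When all 16861 listed genes were tested, its log2 fold change was 0.16 (limma, with a standard error of 0.15 and an adjusted p of 0.55), so no difference was detectable at this depth. The FPKM of Cd9 was 1398 and 1336 times that of Cd81 in NSN oocytes against 580 and 688 times in SN oocytes, ratios that are only as precise as the few read pairs of Cd81.

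**Figure D4:**
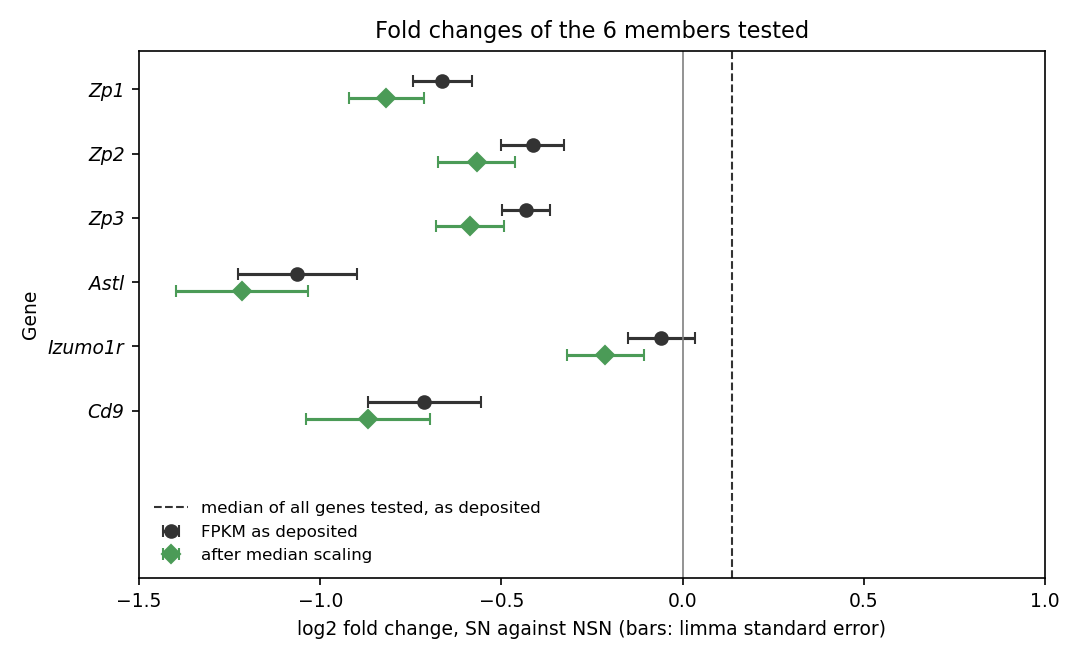
Log2 fold change of SN against NSN for the 6 genes tested, on FPKM as deposited (black circles) and after median scaling (green diamonds), with bars of 1 limma standard error and a dashed line at the median of all genes tested, 0.14. Astl lies lowest at -1.06 as deposited, Zp1, Zp2, Zp3 and Cd9 lie between -0.71 and -0.41, and Izumo1r lies at -0.06.

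The order of the levels per length was nearly the same in both configurations. In NSN oocytes it ran Zp3, Zp2, Zp1, Cd9, Izumo1r, Astl and Cd81, with no overlap of libraries between neighbours. In SN oocytes the order of the means was the same, but Cd9, at 199 to 266 FPKM, and Izumo1r, at 194 to 222 FPKM, were no longer apart. The rank of Cd9 among listed genes went from 156 and 197 to 254 and 356, that of Astl from 374 and 510 to 818 and 1013, and that of Zp1 from 54 and 59 to 86 and 89. Izumo1r ranked 310 and 333 in NSN and 353 and 329 in SN.

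The falls were set beside genes of like abundance, since abundant genes were lower in SN more often than others. The limits of these classes were chosen after the values were seen. Among the 125 genes averaging 500 FPKM or more, a class that holds Zp1, Zp2 and Zp3, 16.8% were called lower and 0.8% higher, and the median log2 fold change was -0.05. For 41.6% of that class the SN libraries lay below both NSN libraries, as they did for all 3 zona genes. Among the 1126 genes from 50 to 500 FPKM, which include Astl, Cd9 and Izumo1r, 5.51% were called lower and 8.44% higher, with a median of 0.07. The share of all genes tested with a lower log2 fold change was 1.98% for Zp1, 5.66% for Zp3 and 6.29% for Zp2. It was 1.62% for Cd9 and 26.9% for Izumo1r. The 100 most abundant genes took 38.7% to 39.8% of the read pairs in NSN and 35.3% to 35.4% in SN, and the part of this shift in the falls of the zona genes was not tested.

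**Figure D5:**
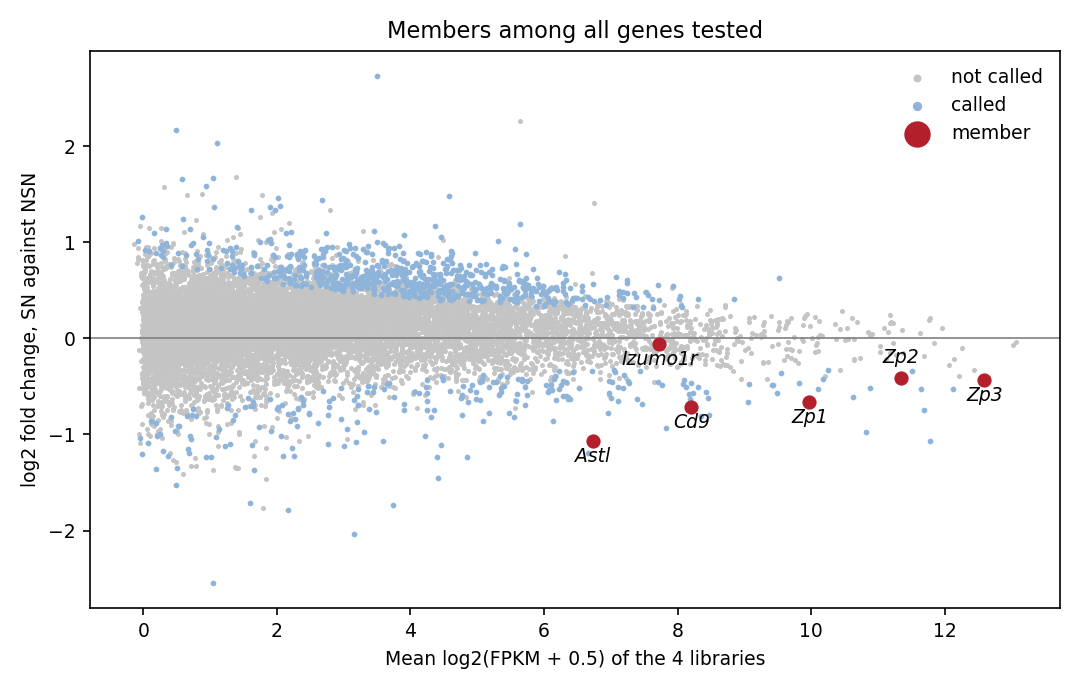
Log2 fold change of SN against NSN (vertical) against the mean log2(FPKM + 0.5) of the 4 libraries (horizontal) for the 11672 genes tested, with called genes in blue, other genes in grey and the 6 genes studied here in red. Zp3 and Zp2 lie at the abundant end below 0, Astl lies near the lower edge of the cloud, and Izumo1r lies close to 0.

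The calls rested on libraries of both groups. Without NSN replicate 1 and without SN replicate 2 the 5 calls were lost, and without NSN replicate 2 those of Zp2 and Zp3. Without SN replicate 1 the 5 calls were kept. Calls over all genes fell in all of these fits but the one without NSN replicate 2, where they rose. In each case the lone library left in a group was assumed to vary like the others, so these calls carry little weight. The 5 genes stayed lower in SN whichever library was left out, with log2 fold changes from -0.75 to -0.57 for Zp1, -0.52 to -0.31 for Zp2, -0.46 to -0.40 for Zp3, -1.28 to -0.85 for Astl and -0.92 to -0.51 for Cd9.

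By the profile over the 4 libraries, the 5 genes most like the zona genes were Sp110, Pdia6, Bscl2, Ndfip1 and Atp5f1a. Likeness was the Euclidean distance between centred log2(FPKM + 0.5) and the mean profile of Zp1, Zp2 and Zp3, among 1245 genes averaging 50 FPKM or more. The distances were 0.0271 to 0.0325, against a median of 0.593 for these 1245 genes. Sp110 had an FPKM of 343 and 321 in NSN and of 237 and 230 in SN, and Pdia6, a protein disulfide isomerase of the endoplasmic reticulum, had 181 and 165 against 124 and 116. Of the 1245 genes, 16 lay nearer to the mean profile than Zp3 itself, 34 nearer than Zp2 and 69 nearer than Zp1, so other abundant genes lay closer to that profile than the zona genes themselves. Over 4 libraries such likeness is a description only.

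Other genes around these roles were taken from lists, each described by its counts. Over all genes tested, 1.98% were called lower and 5.95% higher. A single call in a list is therefore not read as a result about that list. Of 9 transcription factors linked to zona genes, 8 were listed and 7 tested, and 1 was called lower and 0 higher. That gene was Nobox, an oocyte homeobox factor, which had an FPKM of 346 and 285 in NSN and of 165 and 163 in SN. Its groups lay far apart (log2 fold change -0.93, standard error 0.10, limma adjusted p = 0.036). Figla, the factor named above for the zona promoters, had 19.5 and 21.4 FPKM in NSN and 18.4 and 18.3 in SN, and its log2 fold change of -0.15 did not pass the test (limma adjusted p = 0.33). Tcf3, which encodes a partner of FIGLA, did not pass either, at 0.17 on the log2 scale (limma adjusted p = 0.45). The median log2 fold change of the 7 was -0.27, against 0.14 over all genes.

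Of 29 tetraspanins other than Cd9 and Cd81, 18 were listed and 13 tested. Tspan3 was called lower and Tspan17 higher, and the median of the 13 was 0.25. Of all genes tested, 1.98% were called lower and 5.95% higher. Tspan3 went from 34.9 and 29.2 FPKM in NSN to 14.1 and 12.4 in SN, without overlap (log2 fold change -1.24, standard error 0.12, limma adjusted p = 0.036). Tspan17 went from 1.34 and 1.54 to 2.80 and 2.76 FPKM (log2 fold change 0.76, limma adjusted p = 0.042), a call lost after median scaling (limma adjusted p = 0.062). Each of the 18 listed tetraspanins was less abundant than Cd9, and the highest had a mean of 82.0 FPKM.

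Of 13 tetraspanin partners and integrins, 6 were tested, and Itga6, an integrin chain of the egg surface, was the one called. Itga6 rose from 15.3 and 18.8 FPKM in NSN to 26.6 and 25.4 in SN (log2 fold change 0.60, limma adjusted p = 0.043), and its adjusted p was 0.067 after median scaling. Izumo1r is held at the membrane by a GPI anchor, and of 30 genes of anchor synthesis and remodelling 21 were tested, with 1 called lower and 0 higher. The gene called was Pigs, a subunit of the transamidase that attaches the anchor, at 20.2 and 17.5 FPKM in NSN and 11.3 and 10.7 in SN (log2 fold change -0.75, limma adjusted p = 0.036). Beside both lists, 1.98% of all genes tested were called lower and 5.95% higher.

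Of 22 genes for docking and exocytosis of cortical granules, where ovastacin is stored, 18 were tested. Snap23, a SNARE protein, was called higher at 16.2 and 15.7 FPKM in NSN and 21.2 and 22.1 in SN (log2 fold change 0.43, limma adjusted p = 0.045), but its adjusted p was 0.12 after median scaling. No gene of this list was called lower, and its median was 0.0018. Of 13 proprotein convertases and glycosyltransferases, 7 were tested, and Mgat1, which starts the processing of complex N-glycans, was called lower. Mgat1 had 4.79 and 4.54 FPKM in NSN and 2.41 and 2.80 in SN (log2 fold change -0.74, limma adjusted p = 0.040). Beside both lists, 1.98% of all genes tested were called lower and 5.95% higher.

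The labelled cell type was checked on 9 oocyte genes, which were all listed and tested. Of these, 6 were called lower in SN and 0 higher, against 1.98% of all genes tested lower and 5.95% higher. In the class averaging 500 FPKM or more, which holds most of these genes, 16.8% were called lower. The median log2 fold change of the 9 was -0.49, beside a median of -0.55 for the 6 zona and sperm-binding genes tested. After median scaling 4 of the 9 were called lower, with Mos and Npm2 lost, against 1.53% of all genes. Quantile normalization left 2 of the 9, with 230 of all genes called. None was called when low genes were kept in or when the variance trend was dropped, where 0 of all genes were called. Calls were also lost without NSN replicate 1 and without SN replicate 2. Gdf9, an oocyte-secreted growth factor, went from 5239 and 4929 to 2575 and 2289 FPKM, and Padi6 from 4387 and 4170 to 2854 and 2267, while Oosp1 did not pass the test, at 0.03 on the log2 scale (limma adjusted p = 0.83). Since CD9 and CD81 are also made by follicle cells, markers of those cells were read beside them. Of 18 granulosa and cumulus markers 9 were listed, 6 of them with a mean FPKM under 1, and Foxl2, Amh, Inhbb and Fst were not listed. Their summed FPKM was 9.39 and 12.4 in NSN and 13.7 and 13.4 in SN, mostly from Cyp19a1. None of the 3 tested was called. Theca and stroma markers summed to 0.849 and 1.79 FPKM in NSN and to 2.74 and 2.203 in SN, almost all from Dcn, which was the one tested and did not pass (log2 fold change 0.76, limma adjusted p = 0.11). For both lists the sums were higher in both SN libraries, and their part in the results was not tested. Blood, immune and endothelial markers summed to 4.67 and 5.35 FPKM in NSN and 5.05 and 4.82 in SN, and the 1 gene tested was not called.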

How the data were processed

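RNA-seq of 2 NSN and 2 SN libraries of 15 oocytes each was analysed. The label text speaks of 3 samples per group, and the 4 libraries in hand were used. Per the labels and the methods, the authors trimmed reads with Trim Galore 0.6.10, aligned them by HISAT2 against GRCm39 and used featureCounts, ignoring strand, to assign read pairs to GENCODE exons. The deposited FPKM were calculated by the authors with a custom script. The files list a value and a gene symbol.

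Library totals were recovered from 5 mitochondrial tRNA genes of known length, and read pairs of 16838 genes as values whole within 0.0001. Totals of 17069772 to 17998361 read pairs set the counting precision. The log2(FPKM + 0.5) of SN and NSN was compared with limma 3.58.1 in R 4.3.3 (lmFit, eBayes with variance trend, two-sided), since FPKM are not counts. The thresholds are those of the study's methods. Fold changes on this scale understate changes of low genes. The procedure was also run on simulated read pairs, with the same dispersion for every gene and a small set of changed genes. That run does not give its error rates for these data. Ratios were compared by exact permutation tests (scipy 1.17.1, Python 3.11.15), and plots were made with matplotlib 3.10.9.

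Alternatives were pseudocounts of 0.1 and 1, no filter on low values, a stricter filter (mean FPKM 5 or more), median scaling, quantile normalization, totals without the 100 most abundant genes, no variance trend, a replicate block, voom on read pairs (total or median scaling), an adjusted p under 0.1, a fold change of at least 1.5, and each library left out. The genes studied and the lists were chosen with earlier results of these data known. Genes named are the 7 members, up to 4 called genes per list by size of change (otherwise the 2 most abundant, where named), and the 5 nearest profiles. Figla, Tcf3 and Oosp1 were added after their values were seen. Positions and upstream sequences came from GRCm39 with a later GENCODE release than the authors used. Protein sequences were not used here.

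Libraries with the same replicate number did not deviate together (correlation across 11672 genes of the replicate differences -0.07), so the number was not treated as a pairing.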

Additional observations from a re-analysis of the deposited data

How the results depend on the processing

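The 5 genes called lower in SN were called with pseudocounts of 0.1 and 1 and with a mean FPKM of at least 5. They were also called by voom on the read pairs at either scaling, and when the adjusted p limit was 0.1. Apart from the pseudocounts (773 and 946 of 11672), these settings also called a larger part of all genes than the 926 of 11672 in the main comparison. The stricter filter called 1496 of 5519 genes, and the limit of 0.1 called 2370 of 11672. Voom called 2297 (total scaling) and 1706 (median scaling) of 11660. With the replicate block, 5 of the 6 were also called (422 of all genes, against 926 without the block). The block changed no call of a zona or sperm-binding gene, and the numbers mark no known pairing. The count was 3 after median scaling (257 of all genes) and 3 when totals left out the 100 most abundant genes (187 of all genes). It was 2 after quantile normalization (230 of all genes) and 3 when a 1.5-fold change was required (540 of all genes). With all listed genes or without the variance trend it was 0, and 0 of all genes were called. In both settings 5 of the genes studied had an unadjusted p under 0.05 (limma), as had 4092 of 16861 and 3449 of 11672 genes. The calls also depended on which library was left out. Unless stated, the cause of these shifts was not tested.

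With all listed genes the limma log2 fold changes were -0.66 for Zp1, -0.41 for Zp2, -0.43 for Zp3, -1.06 for Astl and -0.71 for Cd9, with adjusted p of 0.054, 0.087, 0.074, 0.054 and 0.071. Without the trend the same values had adjusted p of 0.092, 0.12, 0.099, 0.092 and 0.10. The calls of Zp2 and Cd9 were lost after median scaling (-0.57 and -0.87), quantile normalization (-0.32 and -0.69) and when totals left out the 100 most abundant genes (-0.50 and -0.80), with adjusted p from 0.052 to 0.070. Quantile normalization put Zp3 at 0, by construction, since Zp3 has the same rank in each library. Requiring a 1.5-fold change left out Zp2 (-0.41) and Zp3 (-0.43).

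With 1 library left out, log2 fold changes ranged from -0.75 to -0.57 for Zp1, -0.52 to -0.31 for Zp2, -0.46 to -0.40 for Zp3, -1.28 to -0.85 for Astl, -0.92 to -0.51 for Cd9 and -0.15 to 0.037 for Izumo1r, which reversed without NSN replicate 1 (0.0030) and without SN replicate 1 (0.037). The log2 ratio of Zp2 to Zp3 went from 0.018 to -0.055 without SN replicate 1 and ranged from -0.055 to 0.092. The few read pairs of Cd81 limit any statement on it.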

Other observations

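Relatives of these genes outside the oocyte coat were mostly not listed or low. Of 10 genes of the zona pellucida domain family that act in other tissues, 6 were listed and 3 tested, and 0 were called. The most abundant of them was Tgfbr3, a TGF-beta co-receptor, at 11.7 and 10.4 FPKM in NSN and 11.2 and 11.3 in SN (log2 fold change 0.03, limma adjusted p = 0.88). The other 5 listed had a mean FPKM under 1. The highest of these, Zpld1, had 0.767 and 0.559 FPKM in NSN and 1.52 and 1.13 in SN. Its values did not overlap, but it did not pass the test (log2 fold change 0.65, limma adjusted p = 0.085). The folate receptors Folr1 and Folr2, the closest family of Izumo1r, were not listed. Zp4-ps, the mouse pseudogene of a further zona gene, was chosen after its values were seen and had 2.69 and 1.60 FPKM in NSN and 2.40 and 1.51 in SN (log2 fold change -0.10, limma adjusted p = 0.81).

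Of 15 genes that sperm use to bind the zona or fuse with the egg, 6 were listed, 3 with a mean FPKM under 1, and Izumo1, the ligand of JUNO, was not listed. None of the 3 tested was called. Spam1, a hyaluronidase of sperm, was the most abundant of the list, at 10.8 and 15.2 FPKM in NSN and 16.9 and 19.6 in SN (log2 fold change 0.49, limma adjusted p = 0.11).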
